A study of Mus musculus with 8 samples.

Results

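The SMC1 sites described here were found both in cortical neurons given NMDA and in resting neurons, and had midpoints away from gene ends. SMC1 is a core subunit of cohesin, and its sites were mapped by chromatin immunoprecipitation and sequencing (ChIP-seq). A site was a member when a peak of the resting list overlapped a peak of the NMDA list by 1 bp or more and its midpoint lay more than 1 kb from both ends of every annotated gene. Peaks of the resting list with a strength above 300 were left out, where strength is the sum over both replicates of the −log10 p that the authors' peak caller gave. This gave 598 of the 12359 resting peaks. They lay under 589 of the 1684 NMDA peaks, of which 543 also had their own midpoint away from gene ends. Only midpoints were held to the 1 kb limit, so a wide member could still reach over a gene end. The members were therefore selected on the measured overlap of both lists, on distance to genes and on resting strength, and none of these is a finding.

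The NMDA group consisted of cultures that spent 10 min in 50 µM NMDA and then 50 min without the drug before collection, and the resting group of untreated cultures. NMDA activates a class of glutamate receptors that let calcium into the cell. Both groups were dissociated cortical neurons of wild-type Swiss-Webster mice, taken at embryonic day 16 and grown to day 13 in vitro. The 8 samples formed 4 groups of 2, an SMC1 ChIP and an input group for each condition. Replicates are called biological in the labels, which do not say if litters were separate. Etoposide appears in the growth protocol but in no sample's treatment label. Peak lists hold no expression values, so the labelled cell type could not be checked against marker genes, and such cultures may hold cells other than neurons.

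Cohesin is a ring-shaped complex that encircles DNA and extrudes chromatin loops. Its SMC1 and SMC3 subunits are closed by a kleisin and bound by a STAG subunit. The insulator protein CTCF often halts it at a loop anchor. In neurons, cohesin helps to bring enhancers near promoters, and sites inside genes or between them can be loop anchors, enhancers or internal promoters.

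A group of members whose sequence can be shown lay over internal promoters, that is, annotated transcription starts more than 1 kb from the outer ends of every gene. RefSeq windows of 300 bases on GRCm38.p6, with 250 before each start and 50 after it, were used, and 79 members lay over such a window. The 7 windows printed here were chosen after their values were seen. The first 6 belong to the members with the highest resting strength among protein-coding genes whose resting summit, the highest point of the peak, was within 100 bp of the start. Stag1 was added because it encodes a subunit of cohesin. Each sequence runs 5′ to 3′ on the strand of its gene, and capitals mark matches to core words of the CTCF motif, searched on both strands. The words were spelled AGGGGGC in the first form that was searched for, AGGTGGC in the second form of the same core, and AGAGGGC in the third of these forms.
Col27a1: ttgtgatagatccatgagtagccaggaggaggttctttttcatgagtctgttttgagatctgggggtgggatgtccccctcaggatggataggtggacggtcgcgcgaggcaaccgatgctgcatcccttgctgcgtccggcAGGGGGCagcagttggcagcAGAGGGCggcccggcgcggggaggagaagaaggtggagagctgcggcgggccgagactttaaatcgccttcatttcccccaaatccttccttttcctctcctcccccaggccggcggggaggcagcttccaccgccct
Kcnh1: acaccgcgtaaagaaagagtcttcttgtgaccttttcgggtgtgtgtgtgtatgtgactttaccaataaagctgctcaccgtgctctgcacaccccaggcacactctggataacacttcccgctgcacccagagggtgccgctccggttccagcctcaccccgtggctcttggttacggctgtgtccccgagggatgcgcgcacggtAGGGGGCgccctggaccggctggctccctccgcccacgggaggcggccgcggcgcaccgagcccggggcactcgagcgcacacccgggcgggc
Fam171a1: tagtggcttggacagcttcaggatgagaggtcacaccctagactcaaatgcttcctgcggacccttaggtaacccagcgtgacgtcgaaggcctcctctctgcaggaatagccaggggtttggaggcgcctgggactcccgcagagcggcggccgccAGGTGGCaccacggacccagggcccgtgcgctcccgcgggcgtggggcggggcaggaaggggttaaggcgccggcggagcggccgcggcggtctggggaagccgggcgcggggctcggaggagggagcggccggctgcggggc
Hlcs: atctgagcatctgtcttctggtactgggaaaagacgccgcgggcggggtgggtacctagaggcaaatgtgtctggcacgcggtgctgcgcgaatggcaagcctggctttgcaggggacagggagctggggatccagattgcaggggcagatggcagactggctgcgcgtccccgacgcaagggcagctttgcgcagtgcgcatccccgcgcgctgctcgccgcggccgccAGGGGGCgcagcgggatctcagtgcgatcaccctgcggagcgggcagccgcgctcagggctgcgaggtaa
Bcl2l1: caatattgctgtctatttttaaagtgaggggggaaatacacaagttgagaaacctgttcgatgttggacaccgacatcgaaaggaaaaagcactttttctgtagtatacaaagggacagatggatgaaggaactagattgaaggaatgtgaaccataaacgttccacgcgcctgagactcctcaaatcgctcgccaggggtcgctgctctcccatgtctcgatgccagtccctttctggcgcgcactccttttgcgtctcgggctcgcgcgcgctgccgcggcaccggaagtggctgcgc
Rsad1: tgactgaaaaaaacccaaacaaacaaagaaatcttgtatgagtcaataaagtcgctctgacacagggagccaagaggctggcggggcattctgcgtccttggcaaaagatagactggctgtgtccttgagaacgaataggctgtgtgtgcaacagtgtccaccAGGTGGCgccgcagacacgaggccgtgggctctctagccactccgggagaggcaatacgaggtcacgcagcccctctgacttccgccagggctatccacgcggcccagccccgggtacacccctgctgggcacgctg
Stag1: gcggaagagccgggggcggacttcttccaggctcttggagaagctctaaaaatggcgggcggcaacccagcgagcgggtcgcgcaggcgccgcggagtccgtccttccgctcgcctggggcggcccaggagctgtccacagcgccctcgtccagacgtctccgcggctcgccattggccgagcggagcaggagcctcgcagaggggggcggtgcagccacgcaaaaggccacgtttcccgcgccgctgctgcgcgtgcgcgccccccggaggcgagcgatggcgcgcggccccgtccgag

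The Col27a1 window, at chr4:63215162-63215461 on the plus strand, lay 1.40 kb inside this fibrillar collagen gene and held 2 CTCF core words. The NMDA summit of its peak was 56 bp from the start and the resting summit 60 bp from it. The Kcnh1 window, at chr1:192190527-192190826 on the plus strand, lay 1.63 kb inside this voltage-gated potassium channel gene and held 1 word. Its NMDA summit was 72 bp from the start and its resting summit 89 bp. The window of Fam171a1, at chr2:3118132-3118431 on the plus strand, lay 4.16 kb inside its gene and held 1 word, with the NMDA summit 16 bp from the start and the resting summit 87 bp. The window of Hlcs, the gene of the enzyme that attaches biotin to carboxylases, lay at chr16:94313514-94313813 on the minus strand and held 1 word. Its NMDA summit was 25 bp from the start and its resting summit 7 bp. The resting distances follow from the choice of these windows and are a description. Over all members with an internal window, 25 had a start within 100 bp of the resting summit.

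The window of Bcl2l1, which encodes a regulator of cell death, lay at chr2:152831679-152831978 on the minus strand. That of Rsad1 lay at chr11:94549158-94549457 on the minus strand. Bcl2l1 held none of the words in this window and Rsad1 held 1. The Bcl2l1 NMDA summit was 154 bp from the start and the resting summit 34 bp, while the Rsad1 NMDA summit was 12 bp from it and the resting summit 30 bp. The Stag1 window, at chr9:100643198-100643497 on the plus strand, lay 45.7 kb inside its gene and held none of them. The NMDA summit was 47 bp from that start and the resting summit 134 bp from it. Stag1 stood at 41.8 in the NMDA list (columns of 29.8 and 12) and at 136 in the resting list (77.7 and 58.5). It was the 1 gene of 16 in a list of cohesin and CTCF genes with a member inside it or within 50 kb. That share, 6.25%, stood beside 5.15% of all protein-coding genes and 10.2% of those of 100 kb or more. Stag1 is 361 kb long, and nothing is read from this count.

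Over all members, 91 internal windows of 79 genes were covered, 77 of these genes protein-coding. A CTCF core word on either strand was found in 41 of the 91 (45.1%, exact 95% interval 34.6 to 55.8%). Windows under resting-only peaks away from gene ends held one in 101 of 266 (38%, 32.1 to 44.1%), and all 4728 internal windows in 22.3%. Of all 32851 promoter windows, 22.8% held one. The GC box GGGCGG was found in 70.3% of the members' windows, in 65.8% of those under resting-only peaks and in 35.7% of all windows. A GC box can share letters with a CTCF word followed by further G, and both become more frequent with GC content, whose median was 66.0% in the members' windows, 64.5% under resting-only peaks and 52.7% in all windows. Activity-responsive motifs were rare in all windows too, so their rarity is no trait of the members. The cAMP response element TGACGTCA was found in 0 of 91 windows, which allows a share of up to 3.30% (3 counts of the total), against 1.88% under resting-only peaks and 1.79% of all windows. The AP-1 site TGANTCA was found in 7 of 91 (7.69%), against 3.38% under resting-only peaks and 7.81% of all windows. Both strands were searched throughout. Some windows of the same gene overlapped, as at Pcdh9, Gm33195 and Mest, so a single match could be counted more than once. The exact intervals take windows as independent and are therefore too narrow. These matches describe letters in the windows and not binding, and the intervals for the members and the resting-only peaks overlap for each of these motifs.

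Members lay over an internal promoter window more often than resting peaks absent from the NMDA list. The share was 79 of 583 members (13.6%, 10.9 to 16.6%), against 219 of 7871 resting-only peaks away from gene ends (2.78%, 2.43 to 3.17%). The odds ratio was 5.48 (two-sided Fisher's exact test, Benjamini-Hochberg adjusted over 6 tests, adjusted p = 2.81e-26). Chromosome 18 was left out of this count. The test was added after the data were seen, and it counts peaks, which are not replicates of a condition. Members were also wider and stronger than resting-only peaks, with median widths of 845 bp for members and 580 bp for resting-only peaks and median resting strengths of 51.8 for members and 30.7 for resting-only peaks. Within quintiles of width the odds ratio was 2.62 (95% interval 1.96 to 3.51), with members higher in 3 of 5 classes. Within deciles of strength it was 8.68 (6.30 to 12), with members higher in 10 of 10. Quintiles of both together gave 3.89 (2.82 to 5.36). Counting in place of overlap a start within 250 bp of the resting summit gave 42 of 583 members (7.20%) and 147 of 7871 resting-only peaks (1.87%), an odds ratio of 4.08. With windows at the outer starts of genes included, 94 members lay over one (16.1%), against 239 resting-only peaks (3.04%). The NMDA peaks over members had an internal window in 77 of 528 cases (14.6%, 11.7 to 17.9%), against 23 of 78 NMDA-only peaks away from gene ends (29.5%, 19.7 to 40.9%), a difference that was not tested.

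Peak form was described for the members over internal promoters. A wider peak meets a window more easily, so a larger width is partly set by the definition, and none of these differences was tested. Their median resting width was 1302 bp, against 797 bp for the 519 other members. Their median NMDA strength was 24.5, against 23.6 at the others, and their median resting strength was 40.0, against 53.0. The median log2 ratio (NMDA over resting) was −0.61 at these members and −1.14 at the others. Resting strength is the denominator of that ratio and was lower at these members, so the ratios do not measure how much binding was kept. Other genes with such a member, chosen after their values were seen, were Dab1, an adaptor of reelin signalling in migrating neurons, and App, which encodes the amyloid precursor protein. Mest, an imprinted gene, and Camk2d, a calcium-activated kinase gene, had one as well.

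Inside genes and close to genes, members were more frequent than resting-only peaks of the same distance class. Of the 598 members, 395 lay inside a gene (66.1%, 62.1 to 69.8%), against 4571 of 8178 resting-only peaks away from gene ends (55.9%, 54.8 to 57.0%), an odds ratio of 1.54 (two-sided Fisher's exact test, adjusted p = 2.11e-06). At more than 5 kb from gene ends it was 1.13 (Fisher's exact test, adjusted p = 0.370). Within quintiles of width it was 1.29 with an interval of 1.08 to 1.55, and members were higher in only 3 of 5 classes. Without peaks over internal promoters it was also 1.29. Within deciles of strength it was 1.83, with members higher in 10 of 10 classes, and quintiles of strength and width together gave 1.54. The other 203 members (33.9%) were intergenic, and 129 of them lay within 10 kb of a gene (63.5%, 56.5 to 70.2%), against 1928 of 3607 intergenic resting-only peaks (53.5%, 51.8 to 55.1%). That odds ratio was 1.52 (Fisher's exact test, adjusted p = 0.00876), and within deciles of strength it was 1.3 with an interval of 0.96 to 1.77. No difference in host gene length passed the test. Of in-gene members, 177 of 395 lay in a gene of 100 kb or more (44.8%, 39.8 to 49.9%), against 2094 of 4571 in-gene resting-only peaks (45.8%, 44.4 to 47.3%), an odds ratio of 0.960 (Fisher's exact test, adjusted p = 0.713). The NMDA list has another comparison set, its NMDA-only peaks, and against these the shared peaks lay inside genes less often. Of NMDA peaks over members and away from gene ends, 346 of 543 lay inside a gene (63.7%, 59.5 to 67.8%), against 64 of 83 NMDA-only peaks (77.1%, 66.6 to 85.6%), an odds ratio of 0.521 (Fisher's exact test, adjusted p = 0.0219). The same exact test gave 0.672 at more than 2 kb from gene ends (adjusted p = 0.239) and 0.633 without peaks over internal promoters (adjusted p = 0.158). It gave 0.281 with the resting list at an IDR up to 0.01. There, NMDA peaks that overlapped only dropped resting peaks counted as NMDA-only, so the comparison set differs from the 83 peaks above. IDR, the irreproducible discovery rate, measures how well replicates rank a peak alike.

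**Figure D1:**
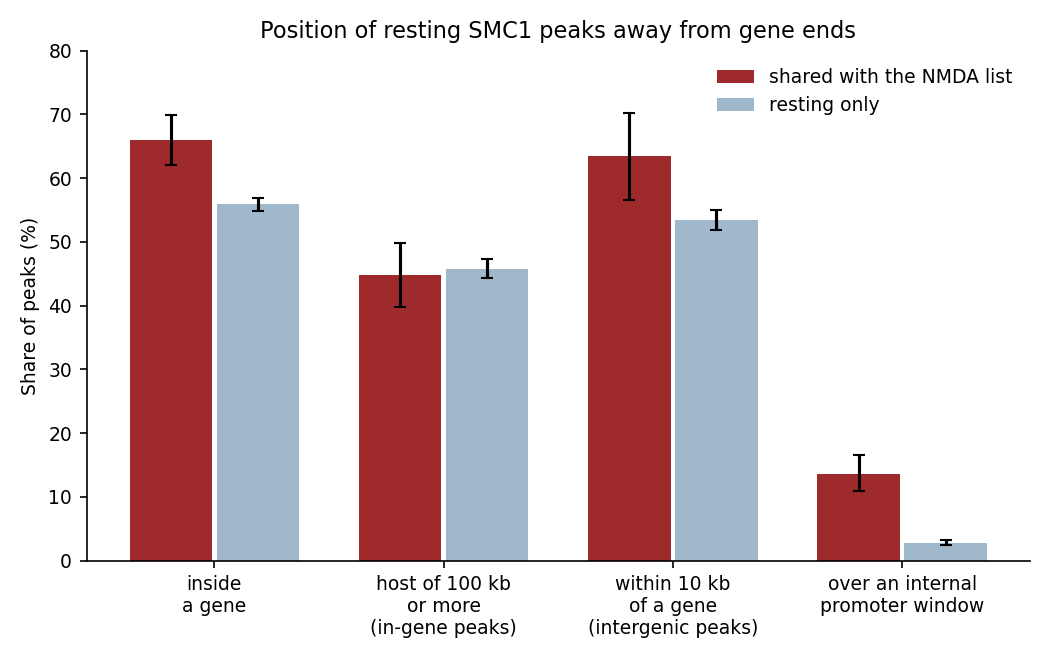
Share of resting SMC1 peaks away from gene ends in each position class, in percent, with exact 95% intervals over peaks, for peaks shared with the NMDA list (dark bars) and resting-only peaks (light bars). The intervals are apart for peaks inside a gene (66.1% and 55.9%) and over an internal promoter window (13.6% and 2.78%), and overlap for host genes of 100 kb or more (44.8% and 45.8%).

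Beyond the 1 kb of the rule, members lay nearer to gene ends than resting-only peaks. The median distance to the nearest gene end was 4902 bp for members and 8907 bp for resting-only peaks. More than 2 kb away were 449 members (75.1%), against 87.9% of resting-only peaks. More than 10 kb away were 182 members (30.4%, 26.8 to 34.3%), against 46.8% (45.8 to 47.9%) of resting-only peaks. Only 8 members (1.34%) lay more than 100 kb away, against 247 resting-only peaks (3.02%). The farthest member, inside Dab1, was 341 kb from a gene end.

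**Figure D2:**
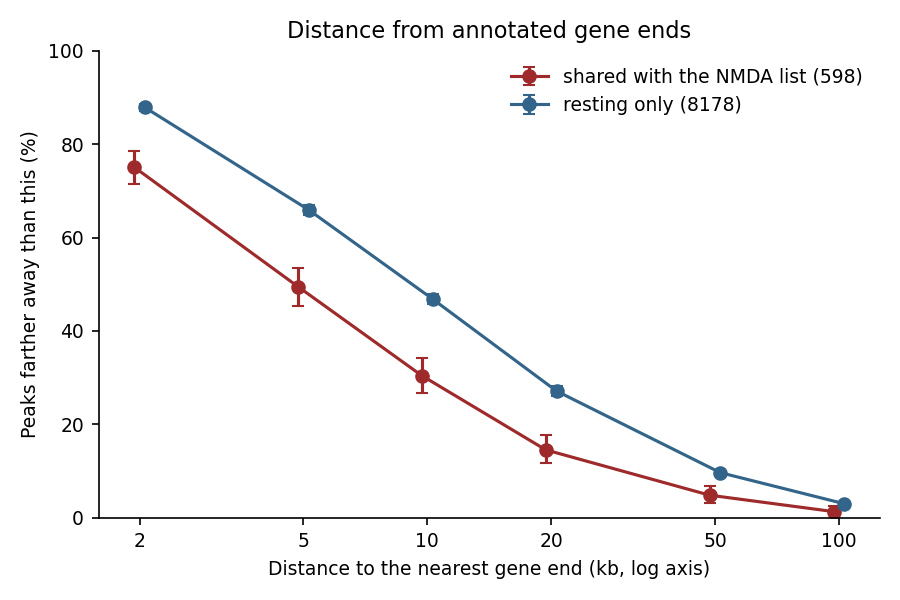
Percent of peaks lying farther from the nearest annotated gene end than the distance on the x axis (kb, log axis), with exact 95% intervals over peaks, for peaks shared with the NMDA list and for resting-only peaks. The shared peaks lie below the resting-only peaks at every distance from 2 kb (75.1% and 87.9%) to 100 kb (1.34% and 3.02%).

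Around the distance limit lay peaks of both low and high strength. Just inside lay members nearest to Gab1 (1001.5 bp, NMDA strength 37.9, resting strength 44.7), Slc6a9 (1004.5 bp, 19.6 and 18.5) and Ier5 (1012 bp, 32.2 and 58.5). Just outside lay shared peaks nearest to Junos (976 bp, NMDA strength 55.4, resting strength 30.0), Dip2b (973 bp, 24.4 and 29.8) and Lrp8 (972 bp, 19.1 and 30.9). The strength limit removed 1 peak, at chr2:98666955-98667301, with an NMDA strength of 21863 and a resting strength of 3610, while the highest members reached 226, 193 and 176 in the resting list.

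As a background to the membership itself, 10.7% of all resting peaks up to strength 300 and 6.81% of those away from gene ends overlapped an NMDA peak, and nothing is read from these shares. Library depths are not in the lists. A −log10 p grows with depth, so setting NMDA beside resting strengths is a description and not a measure of changed binding. In the NMDA list the members' strength had a median of 23.7 (lowest 17.9, highest 1083), with medians of 13.8 and 9.18 in its replicate columns. In the resting list the median was 51.8 (16.8 to 226), with column medians of 25.8 and 24.5. NMDA strength exceeded resting strength at 64 of 598 members (10.7%, 8.34 to 13.5%), and at 141 of 722 shared peaks at gene ends (19.5%, 16.7 to 22.6%). Shared peaks at gene ends had median strengths of 24.2 (NMDA) and 37.0 (resting). NMDA over resting strength had a median log2 ratio of −1.08 at members and −0.59 at gene ends. Resting strength is the denominator, and it was higher at members while the NMDA medians were close. Neither these ratios nor the shares above therefore compare changes of binding, and the differences were not tested. Single replicate columns gave median log2 ratios from −1.40 to −0.79 at members. An IDR up to 0.01 in both lists was reached by 115 members (19.2%).

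Members were also described by class of resting strength. In 4 equal classes of resting strength, low to high, the median NMDA strength was 22.8, 22.3, 23.6 and 27.1, while the median log2 ratio was −0.11, −0.85, −1.37 and −1.84. Resting strength is the denominator of that ratio, and NMDA strengths start at 17.9 because weaker peaks are not in the list, so the trend of the ratio is largely built in. Across the 598 members Spearman's rho between the NMDA columns was −0.21 and that between the resting columns 0.65. Between the summed strengths of both lists it was 0.30. With the resting columns, the first NMDA column gave 0.33 and 0.29, and the other −0.030 and −0.018. These are descriptions over peaks that share libraries and that had to pass in both replicates, so they say nothing of agreement between libraries. NMDA peaks were about as wide as the resting peaks under them, with median widths of 920.5 bp in the NMDA list and 845 bp in the resting list, and 162 members (27.1%) lay wholly inside their NMDA peak.

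**Figure D3:**
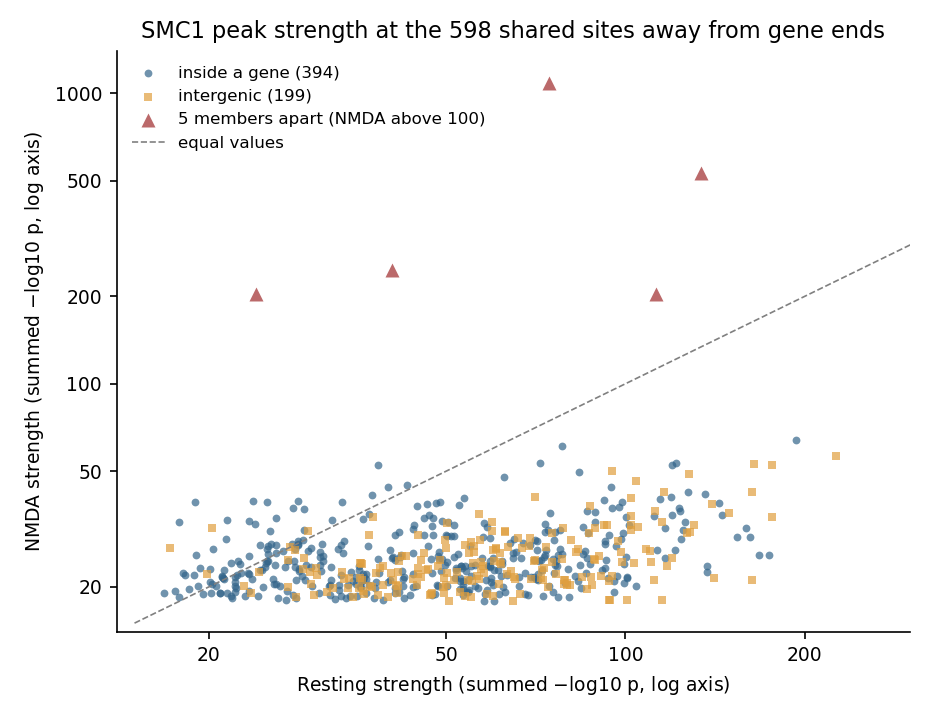
NMDA strength against resting strength (summed −log10 p, both log axes) of each of the 598 members, by position inside a gene or between genes, with the 5 members apart as triangles and equal values as a dashed line. All but the 5 have an NMDA strength of at most 64.2, and 64 of the 598 lie above the line.

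The 5 members apart had NMDA strengths above 100, and the next highest stood at 64.2. One lay inside Chl1, a neural cell adhesion gene, at chr6:103649103-103649353. Its NMDA columns were 418 and 665 and its resting columns 45.6 and 28.8. A pair lay in intergenic sequence at chr9:3019017-3019493 and chr9:3002428-3002709, with NMDA columns of 41.1 and 491 and of 22.7 and 224, and resting columns of 29.8 and 104 and of 11.3 and 29.3. Most of their NMDA strength thus came from 1 column. The other pair lay under 1 NMDA peak (98.6 and 104) beside the ribosomal RNA pseudogene Rn18s-rs5, at chr17:39843651-39846383 and chr17:39843044-39843562, with resting strengths of 113 and 24.0. No list of regions prone to artefact signal was applied, and whether these sites hold SMC1 was not tested. Without them 593 members were left, the median log2 ratio was −1.10, and the odds ratios were 1.56 inside genes and 5.53 at internal promoters.

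The resting list gave its highest strength among members to a site 7.94 kb from the end of Eif4b, a translation initiation factor gene, at chr15:102065515-102066162. It had NMDA columns of 38.2 and 18.2 and resting columns of 135 and 90.6. The site in Col27a1 followed with NMDA columns of 39.5 and 24.6 and resting columns of 96.5 and 96.8. The site at chr19:44582464-44583517, 6.72 kb from Hif1an, the gene of a hydroxylase of hypoxia-inducible factor, had NMDA columns of 41.2 and 11.2 and resting columns of 70.4 and 106. At these sites both resting columns stood above both NMDA columns, as ranking by resting strength favours.

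Further members of the 15 lay in ion channel genes. The site in Kcnh1 had NMDA columns of 19.7 and 6.09 and resting columns of 119 and 55.4. That in Kcnq1, at chr7:143153468-143154467, had NMDA columns of 15.1 and 10.7 and resting columns of 98.4 and 69.3. Kcnq1 encodes a voltage-gated potassium channel subunit and lies in an imprinted region. The site in Trpc7, a calcium-permeable channel gene, at chr13:56806558-56807372, had NMDA columns of 24.1 and 5.72 and resting columns of 95.6 and 66.5. The others of the 15 lay in Ccdc33, Kif26a, Gnat1 and Zmiz1, or near Gm31728, Glrx3, Gm39984, D930030F02Rik and Chst8. Their resting strengths were 143 to 176, and the Zmiz1 peak also reached over the start of its gene. In all 15 both resting columns stood above both NMDA columns, but these members were picked on the resting value, so the contrast is a description and no result.

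**Figure D4:**
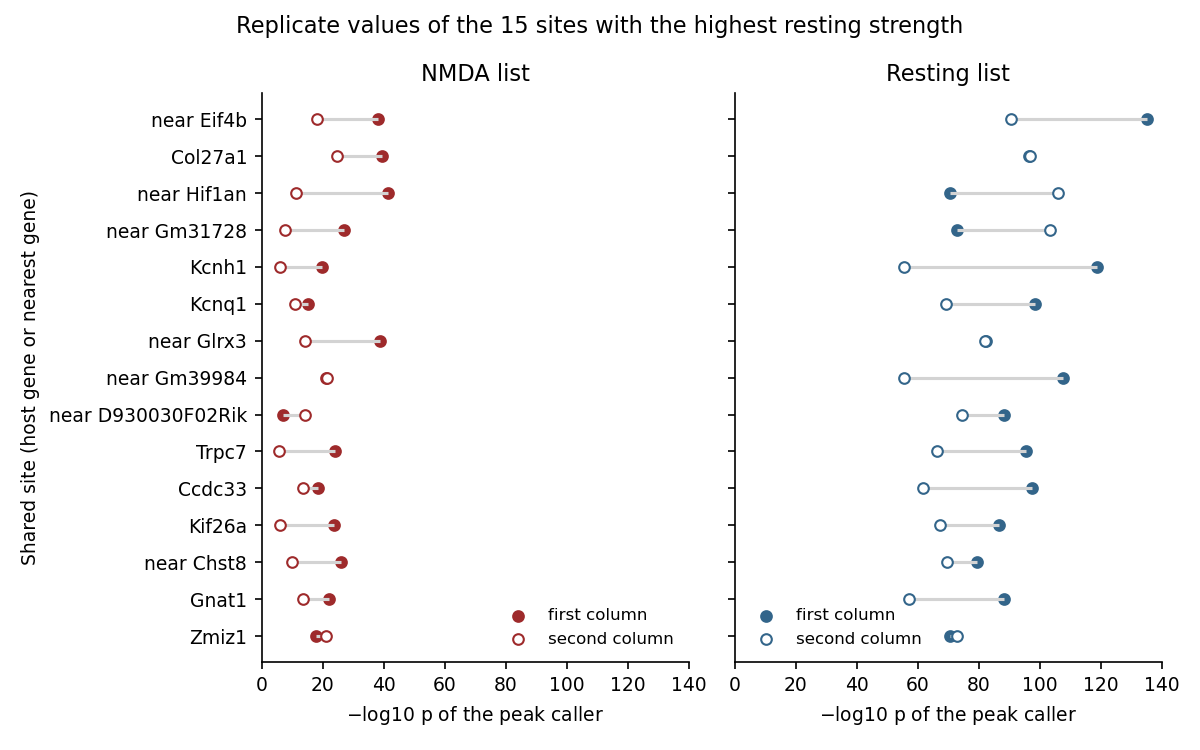
The peak caller's −log10 p in the first (filled) and second (open) replicate column of the NMDA list (left) and of the resting list (right), for the 15 members with the highest resting strength, named by host gene or nearest gene. The NMDA values reach 41.2 and the lowest resting value is 55.4, in members picked for high resting values.

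Beside the 5 apart and the sites of Col27a1 and Eif4b, the highest NMDA strengths were at Irf2bpl, Polr3gl and Dab1. The peak of Irf2bpl, at chr12:86881703-86885582, had NMDA columns of 42.0 and 19.2 and resting columns of 44.9 and 33.3. It also ran past an outer end of that gene. The site in Polr3gl, a gene of an RNA polymerase III subunit, had 38.2 and 15.2 (NMDA) and 62.4 and 59.2 (resting). The site in Dab1 had 25.9 and 27.3 (NMDA) and 50.0 and 22.0 (resting), so its NMDA and resting columns overlapped. By the lowest of the 4 replicate values, a site in the long noncoding RNA gene Gm38708, 4.15 kb from the transcription factor gene Gata2, also stood high, with NMDA columns of 21.0 and 21.3 and resting columns of 83.9 and 43.3. So did one near Gm13446, with NMDA columns of 20.7 and 25.6 and resting columns of 47.0 and 57.1.

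The summits of both lists coincided more closely at members than at shared peaks near gene ends. They lay within 100 bp at 371 of 598 members (62.0%, 58.0 to 65.9%), against 298 of 722 shared peaks at gene ends (41.3%, 37.7 to 45.0%). The odds ratio was 2.33 (two-sided Fisher's exact test, adjusted p = 2.03e-13). Median distances were 67 bp at members and 136 bp at gene ends. Summits of the 2 replicates of a single list were also closer at members. Their median distances were 43.5 bp at members and 107.5 bp at gene ends in the resting list, and 112 and 192 bp in the NMDA list. The closer summits are thus not particular to the comparison of conditions. This test was added after the data were seen. Peaks at gene ends were wider, with a median resting width of 1152 bp, and within quintiles of strength and width together the odds ratio was 1.27 (95% interval 0.98 to 1.66).

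The 395 in-gene members lay in 389 host genes, some members inside more than 1 gene. The host was protein-coding for 360, a long noncoding RNA gene for 34 and a transcribed pseudogene for 1. The gene table holds no exons, so exons, introns and UTRs were not told apart. The median host length was 88.0 kb. Nfix, a transcription factor gene of neural progenitors and neurons, was the only host of 3 members, with NMDA strengths of 19.3 to 26.8 and resting strengths of 22.1 to 40.3. It also held 3 resting-only peaks. A further 20 protein-coding genes held 2 members, and these need not be separate sites. At Src, a tyrosine kinase gene chosen after its values were seen, both members lay under 1 NMDA peak (52.5), with resting strengths of 120 and 38.5. In all, 12 NMDA peaks covered 2 members each, and 34 members (5.69%) lay within 10 kb of another.

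By chromosome, members were absent from X. There were 0 of 598, which allows a share of up to 0.502% (3 counts of the total), against 92 of 8178 resting-only peaks away from gene ends (1.12%, 0.91 to 1.38%). Shared peaks at gene ends also had 0 of 722 on X, while 5 of the 1684 NMDA peaks lay there (0.30%). All 5 of these were NMDA-only. The sex of the embryos is not in the labels. The autosomes held 15 members (chromosome 18) to 52 (chromosome 2).

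Genes of neuronal function were then read against all protein-coding genes. A member lay inside or within 50 kb of 1127 of 21896 protein-coding genes (5.15%), and inside 340 of them (1.55%). Of the 2428 genes of 100 kb or more, 248 had one within 50 kb (10.2%). Among 22 early response genes, which neurons switch on within minutes to hours of activity, 7 had one (31.8%). Resting-only peaks lay as near to 14 of the 22 (63.6%), against 46.0% of all protein-coding genes. The median length of the 22 genes was 4.79 kb and that of all protein-coding genes 17.1 kb. The counts are small and no test was made on any list.

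The early response member with the highest resting strength lay inside Npas4, a neuronal transcription factor gene, at chr19:5001757-5002456. It had NMDA columns of 16.5 and 8.69 and resting columns of 74.5 and 41.8. The member near Gadd45b, a gene of DNA repair and demethylation, was 1.13 kb away, with NMDA columns of 18.0 and 10.9 and resting columns of 41.3 and 55.9. Near Junb and Ier2 the NMDA strengths were 23.2 and 26.8 and the resting strengths 53.2 and 40.3, the Ier2 member being one of those inside Nfix. The other 3, named after their values were seen, were Nr4a3, Nr4a1 and Fos. The Nr4a3 member was 1.96 kb away, the Nr4a1 member 12.9 kb and the Fos member 10.6 kb. Their NMDA strengths were 21.1 to 21.9 and their resting strengths 30.4 to 36.1. Of 20 late response genes, 0 had a member within 50 kb, against 5.15% of all protein-coding genes. A list of this size is too small to read a count of 0, so early and late response genes are not contrasted. Resting-only peaks lay within 50 kb of 10 of the 20 (50%), against 46.0% of all protein-coding genes.

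Potassium channel genes had a member at 7 of 27 (25.9%), 6 of them inside the gene. Their median length was 253 kb, so the share for long genes, 10.2%, is the nearer comparison. Beside Kcnh1 these included Kcnip1, a channel-interacting protein, whose site had NMDA columns of 23.4 and 5.74 and resting columns of 50.1 and 73.6. Kcnj6, an inward rectifier, had NMDA columns of 14.9 and 7.04 and resting columns of 36.4 and 26.9. Of 20 calcium and sodium channel genes, of a median length of 165 kb, 2 had a member (10%), which is close to the 10.2% of long genes. One lay inside Cacna2d2 (NMDA 31.4, resting 74.1) and the other in intergenic sequence 46.6 kb from Cacna1a (NMDA 20.2, resting 44.7).

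Of 18 genes of NMDA, AMPA, kainate and related receptors, 4 had a member (22.2%). Their median length was 298 kb, and 10.2% of all genes of 100 kb or more had one. The site in Grin2a, an NMDA receptor subunit gene, had NMDA columns of 15.8 and 7.04 and resting columns of 44.1 and 28.3. Grin2c had members 3.38 and 46.7 kb away, with NMDA strengths of 29.8 and 23.9 and resting strengths of 57.7 and 99.4. The delta receptor gene Grid1 had a member 8.76 kb away, with an NMDA strength of 17.9 and a resting strength of 50.5. Of 8 metabotropic receptor genes 1 had a member (12.5%), which lay 6.84 kb from Grm4. Of 16 postsynaptic scaffold genes 2 had one (12.5%), inside Gphn and 45.8 kb from Shank1. Both shares are near that of long genes. The 20 synaptic adhesion genes, of a median length of 687 kb, had 0. Resting-only peaks lay within 50 kb of 13 of them (65.0%), against 70.0% of all genes of 100 kb or more. A list of this size is too small to read a count of 0.

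Axon guidance genes had a member at 6 of 33 (18.2%), against 10.2% of genes of 100 kb or more, the median length of the list being 231 kb. Among them were the receptor genes Epha3 (NMDA 25.4, resting 73.0) and Robo2 (24.9 and 49.2) and the ligand genes Efna5 (27.4 and 63.6) and Sema6d (32.7 and 44.3). The Efna5 member lay outside the gene, 2.87 kb away. Of 25 transcription factor genes of cortical projection neurons, of a median length of 150 kb, 4 had one (16%). They were Bcl11b (NMDA 30.9, resting 73.3), Nfia (20.1 and 50.2), Neurod2 (22.1 and 44.0) and Tle4 (34.0 and 21.4). The Neurod2 member lay 13.1 kb away, inside Gm38970. The Tle4 member was the one of these 4 with the higher value in the NMDA list. Of 23 cadherin and protocadherin genes 2 had a member (8.70%, against 10.2% of genes of 100 kb or more), Cdh2 (24.3 and 50.2) and Pcdh9 (24.7 and 41.0).

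The other lists hold marker genes of cell types, and no expression was measured. Of 10 progenitor genes 2 had a member, Pax6 and Sox2, and of 10 oligodendrocyte genes 2, Pdgfra and Mbp. Of 10 microglia genes 1 had one, C1qa. None was near any of 10 astrocyte, 10 endothelial, 16 inhibitory neuron and 10 pan-neuronal genes. With 5.15% of all protein-coding genes near a member, lists of this size are too small to read either a count of 0 or one of 2. Resting-only peaks lay within 50 kb of 6 astrocyte, 3 endothelial, 12 inhibitory neuron and 6 pan-neuronal genes, against 46.0% of all protein-coding genes.

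**Figure D5:**
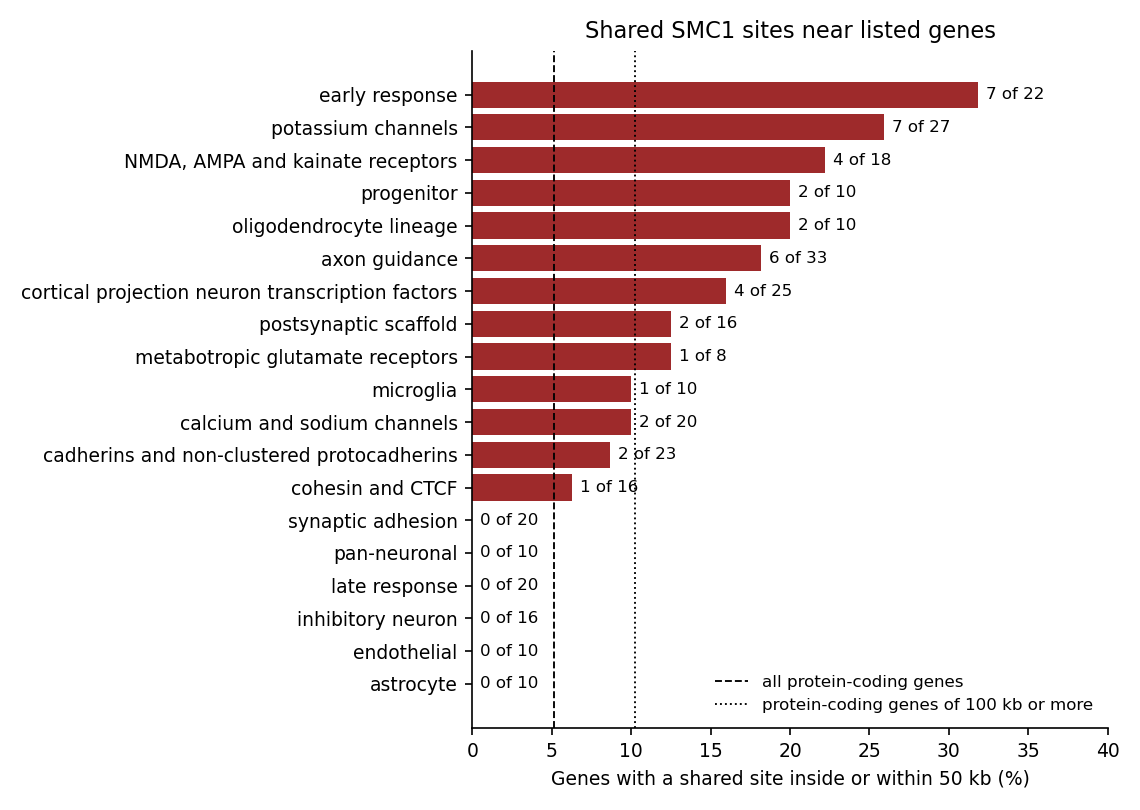
Percent of the genes of each list with a member inside or within 50 kb, with the counts beside the bars, and lines for all protein-coding genes (5.15%) and for those of 100 kb or more (10.2%). Early response genes (7 of 22) and potassium channel genes (7 of 27) have the highest shares, and 6 lists have 0.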

How the data were processed

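SMC1 ChIP and input DNA were sequenced from NMDA-treated and resting cortical neurons. Per the submitters' processing notes, which give no versions, the tools were FastQC, Trimmomatic, BWA, SAMtools and MACS2, and mm10 and GRCm38.p6 were the builds. The authors deposited 1 peak list per condition, in the 20-column layout of the IDR tool, with peaks that passed an IDR of 0.05. The deposited lists give a −log10 p from peak calling for each replicate, without replicate numbers, and the sum of both, used here as strength. They also hold a score of up to 1000 from the IDR tool, as the authors deposited it, and the −log10 of the IDR. Fold enrichment is a placeholder. Depth is unknown, and input values were not used here beyond the authors' peak calling.

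Gene positions and promoter windows came from RefSeq tables of GRCm38.p6 with 49993 genes. Windows of chromosome 18 were not used. Intervals of shares are 95% Clopper-Pearson (exact) and cover counting error only. Of 6 two-sided Fisher's exact tests, adjusted together by Benjamini-Hochberg, 4 were planned and 2 added after seeing the data. Strata were combined as Mantel-Haenszel odds ratios. A planned test of the CTCF motif in peaks needs a genome and was not run. Python 3.11.15, numpy 2.4.6, pandas 2.3.3, scipy 1.17.1 and statsmodels 0.14.6 were used. Fisher's exact test was checked on simulated independent counts for the share inside genes. The other shares, the strata and dependence between neighbouring peaks were not simulated. Each condition has 1 list, so a p-value describes these peaks and not replicate cultures.

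The members and the 19 gene lists (324 genes) were chosen with earlier results of these data known. Named members are the 15 with the highest resting strength, the 10 with the highest NMDA strength, the 8 with the highest lowest replicate value, and the 3 nearest each side of a limit. Named genes are hosts of 3 or more members and up to 4 genes per list, of which some are not reported here. Other names were chosen after their values were seen.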

Additional observations from a re-analysis of the deposited data

How the results depend on the processing

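The number of members ranged from 449 to 682 under 7 other settings and was 296 at more than 5 kb from gene ends. At more than 5 kb the odds ratio inside genes was 1.13, that for intergenic members within 10 kb of a gene 1.52 (Fisher's exact test, adjusted p = 0.0596), and that for NMDA peaks inside genes 0.738 (exact, adjusted p = 0.480). At more than 2 kb this last odds ratio was 0.672, and without peaks over internal promoters 0.633. Within deciles of strength the odds ratio for host genes of 100 kb or more was 1.05 (95% interval 0.85 to 1.3), the opposite direction of a difference that passed no test, and that for intergenic members within 10 kb was 1.3. Within quintiles of strength and width together the odds ratios were 1.36 for intergenic members, 0.588 for NMDA peaks inside genes and 1.27 for summits within 100 bp, and each 95% interval held 1. The causes were not tested. The odds ratio at internal promoters kept its direction and its side of the threshold in all 12 alternatives (2.62 to 8.68). Single classes of width did not all keep the direction, as members were higher in 3 of 5. The median log2 ratio was −1.40 with the second NMDA column over the first resting column. The alternatives without peaks of an NMDA strength above 100 or over internal promoters, the joint strata and those of the 2 added tests were chosen after seeing the data.

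No paired analysis was possible because each deposited list merges its replicates and its replicate columns carry no numbers. For the same reason no replicate was left out of the membership. The planned CTCF motif test and its alternatives were not run. Peaks that failed the IDR limit were not analysed here, and the number of peaks that pass it also depends on depth, which is unknown.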
